A study of Mus musculus with 9 samples.

Results

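The goblet cell secretes the mucus that covers the intestinal lining, and 10 genes of that cell were followed through jejunal RNA of irradiated mice. They were Muc2, Tff3, Fcgbp, Clca1, Zg16, Agr2, Spdef, Spink4, Klk1 and Qsox1, taken by Ensembl identifier from a table of 31685 genes. All 10 had a row, and all 10 were among the 13056 genes with a value of at least 1 in at least 3 mice that were tested. They were chosen by name as goblet cell genes once their FPKM differences between these groups were known. Their levels are therefore given below as a description, without p-values. Members past an adjusted threshold are counted further on beside the share of all tested genes, and those counts are not a test.

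Each group held 3 wild-type C57BL/6J mice, which were males aged 6 to 8 weeks by the study's methods. Control mice were not irradiated. TAI mice received a single 12 Gy dose of X-rays to the abdomen (total abdominal irradiation, TAI), and by the study's methods also PBS. TAI/IVIg mice received the same dose followed by 500 mg/kg of intravenous immunoglobulin (IVIg, human IgG pooled from plasma donors) within 1 h, with further injections every 3 days. The jejunum was taken on day 3, and the unit is FPKM, a fragment count scaled to gene length and to library size. The labels place all 9 samples in the same batch and call the tissue epithelial, but the 14 markers of stroma and muscle, such as collagen and desmin genes, were also present, with summed levels of 113 to 649.8 FPKM across mice. In bulk tissue of this kind, fewer goblet cells and less RNA per goblet cell cannot be told apart. Recovered read totals ran from 16282018 to 18241796 per library.

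Mucus of the small intestine is built around MUC2, a large gel-forming mucin that is folded and joined by disulfide bonds in the endoplasmic reticulum (ER), densely glycosylated in the Golgi, stored in granules and expanded on release. Other secreted proteins join it there, among them FCGBP, the protease CLCA1, the lectin-like ZG16 and the trefoil peptide TFF3. The secretory fate is set by the transcription factor ATOH1, and SPDEF, an ETS-family factor acting after it, promotes goblet cell maturation.

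The sites of ETS factors share a GGA core, which SPDEF prefers in the form GGAT, so the bases upstream of member genes are shown for 2 mucus genes that were higher after TAI (Muc2 and Fcgbp) and for Agr2, a folding factor, and Spdef itself, which were lower on average. The sequences are the 250 bases before the RefSeq start on the gene's own strand (assembly GRCm38.p6), 5′ to 3′, with each GGAT, or ATCC where the core lies on the opposite strand, in capitals. The windows are chr7:141690090-141690339 on the plus strand for Muc2, chr7:28070986-28071235 on the plus strand for Fcgbp, chr12:35992675-35992924 on the plus strand for Agr2 and chr17:27728952-27729201 on the minus strand for Spdef.
Muc2: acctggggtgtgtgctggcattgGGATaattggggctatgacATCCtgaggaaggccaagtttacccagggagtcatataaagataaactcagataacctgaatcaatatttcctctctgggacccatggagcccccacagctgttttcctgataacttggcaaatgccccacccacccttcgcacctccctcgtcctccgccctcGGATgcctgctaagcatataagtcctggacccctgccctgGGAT
Fcgbp: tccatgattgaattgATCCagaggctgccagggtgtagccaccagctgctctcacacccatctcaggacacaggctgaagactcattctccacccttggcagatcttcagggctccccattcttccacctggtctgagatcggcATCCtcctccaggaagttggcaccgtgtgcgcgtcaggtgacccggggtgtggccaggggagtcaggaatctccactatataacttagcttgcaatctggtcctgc
Agr2: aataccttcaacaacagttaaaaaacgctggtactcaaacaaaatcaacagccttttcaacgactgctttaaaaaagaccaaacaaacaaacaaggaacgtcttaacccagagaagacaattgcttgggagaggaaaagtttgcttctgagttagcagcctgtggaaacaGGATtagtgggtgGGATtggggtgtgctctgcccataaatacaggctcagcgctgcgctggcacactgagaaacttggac
Spdef: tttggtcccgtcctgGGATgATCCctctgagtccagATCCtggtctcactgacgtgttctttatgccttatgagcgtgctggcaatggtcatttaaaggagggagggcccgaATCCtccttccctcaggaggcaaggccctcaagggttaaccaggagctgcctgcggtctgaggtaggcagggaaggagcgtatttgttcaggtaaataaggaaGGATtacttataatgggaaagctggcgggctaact

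RefSeq promoters were matched for 6 of the 10 genes (Muc2, Fcgbp, Agr2, Spdef, Klk1 and Qsox1), and not for Tff3, Clca1, Zg16 and Spink4. On either strand, the core GGAT occurred 5 times before Spdef itself, 4 times before Muc2, 2 times each before Fcgbp, Agr2 and Qsox1, and 1 time before Klk1. It is a common string, present in 20059 of 27025 windows of the same length (74.2%), with 1.47 matches per window on average. The E-box CAGNTG, the kind of site that ATOH1 and other basic helix-loop-helix factors bind, occurred 3 times before Fcgbp, 2 times before Klk1 and 1 time before Muc2, against 44.5% of all windows with at least 1 match. The forkhead string TNTTTAC occurred 1 time, before Spdef, and in 10.9% of all windows. The 3 strings were searched separately, so a base may count in more than 1 of them. These matches describe letters and were not tested as binding sites.

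In GRCm38 with GENCODE M21 annotation, the genes lie at chr7:141690340-141754693 (Muc2), chr17:31125306-31129646 (Tff3), chr7:28071236-28120862 (Fcgbp), chr3:145003817-145032776 (Clca1), chr7:127050156-127087328 (Zg16), chr12:35992907-36004087 (Agr2), chr17:27714352-27728955 (Spdef), chr4:40920052-40931395 (Spink4), chr7:44225360-44229618 (Klk1) and chr1:155776029-155812889 (Qsox1). Values were read over exons, and the gene length implied by the FPKM equalled the merged exons of that annotation for 9 of the 10 genes. Muc2 was the exception, with an implied length of 13916 bases against 7127 bases, so its level per length relative to other genes depends on the gene model. The length is the same for every mouse, but the model also sets which reads count. Its bearing on comparisons of Muc2 between mice was not checked. The length matched for 12682 of the 12950 tested genes in that annotation (97.9%). Klk1 and Clca1 have close relatives in the genome, and how reads matching several of these were counted is not known here. Qsox1 shares 61 exon bases with Gm37539 on the opposite strand.

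To see how irradiation and IVIg bear on the mucus layer, the structural components were taken first. Of 5 secreted mucus components, 4 were higher in every TAI mouse than in every control mouse, beside 15.1% of all tested genes. The mean of all 5 fell from TAI to TAI/IVIg mice. The median log2 difference of all tested genes between those groups was also negative (-0.13), and no share of genes with a lower mean was taken. MUC2 forms the gel itself. Muc2 was at 85.6, 88.8 and 68.6 FPKM in the 3 control mice, at 138, 174 and 131 FPKM in the TAI mice and at 65.6, 104 and 45.7 FPKM in the TAI/IVIg mice. Group means were 81.0 ± 10.9, 148 ± 22.9 and 71.6 ± 29.4 FPKM (SD, n = 3 each). All TAI mice lay above all mice of the other groups, while TAI/IVIg and control mice overlapped. The TAI mean was 1.83 times the control mean, a log2 difference of 0.86 with a standard error (SE) of 0.27, and TAI/IVIg differed from TAI by -1.10 (SE 0.27) on the log2(FPKM + 1) scale, on which the log2 differences below are also given.

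FCGBP is a large mucus protein that becomes linked to MUC2, and it had the highest ratio of TAI to control among the members. Fcgbp measured 119, 138 and 92.8 FPKM in control mice, 286, 345 and 245 FPKM in TAI mice and 113, 259 and 104 FPKM in TAI/IVIg mice. The TAI mean (292 ± 50.4) was 2.51 times the control mean (117 ± 22.7), with a log2 difference of 1.32 (SE 0.33). The TAI/IVIg mean of 158 ± 86.9 hid 2 mice at control level and a single mouse, TAI/IVIg 2, inside the TAI range, and the log2 difference from TAI was -0.99 (SE 0.33). Without that mouse, the sign of Fcgbp in TAI/IVIg against control turned, from 0.33 to -0.09.

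ZG16, which binds the cell walls of Gram-positive bacteria, had the highest level of the 10 genes in every group. Control mice gave 1453, 1192 and 1018 FPKM of Zg16, TAI mice 1858, 2259.7 and 2286 FPKM, and TAI/IVIg mice 1371, 1894 and 1271 FPKM. The TAI mean of 2134 ± 240.0 was 1.75 times the control mean of 1221 ± 219 (log2 difference 0.81, SE 0.22). TAI/IVIg mice averaged 1512 ± 335 FPKM and overlapped with both other groups, and their log2 difference from TAI was -0.51 (SE 0.22).

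TFF3 is a small trefoil peptide released with mucin and linked to epithelial repair. Tff3 levels were 700.2, 713 and 521 FPKM in control, 867, 1151 and 989.9 FPKM in TAI and 548, 868 and 445 FPKM in TAI/IVIg mice. Every TAI mouse lay above every control mouse, with a log2 difference of 0.64 (SE 0.26) between means of 1003 ± 142 and 645 ± 107 FPKM. TAI/IVIg mice averaged 620.1 ± 221 FPKM, and TAI/IVIg 2 reached the lowest TAI value, which left the 2 groups overlapping by a narrow margin.

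CLCA1, a secreted protease that processes MUC2, differed from the other mucus components in that TAI and control mice overlapped. Clca1 was at 227, 225 and 161 FPKM in control mice, at 215, 294 and 197 FPKM in TAI mice and at 80.0, 177 and 63.2 FPKM in TAI/IVIg mice. Means were 204 ± 37.2, 235 ± 51.8 and 107 ± 61.7 FPKM. The log2 difference of TAI from control was 0.20 (SE 0.35), smaller than its error, whereas TAI/IVIg lay below TAI in every mouse, by -1.25 (SE 0.35).

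**Figure D1:**
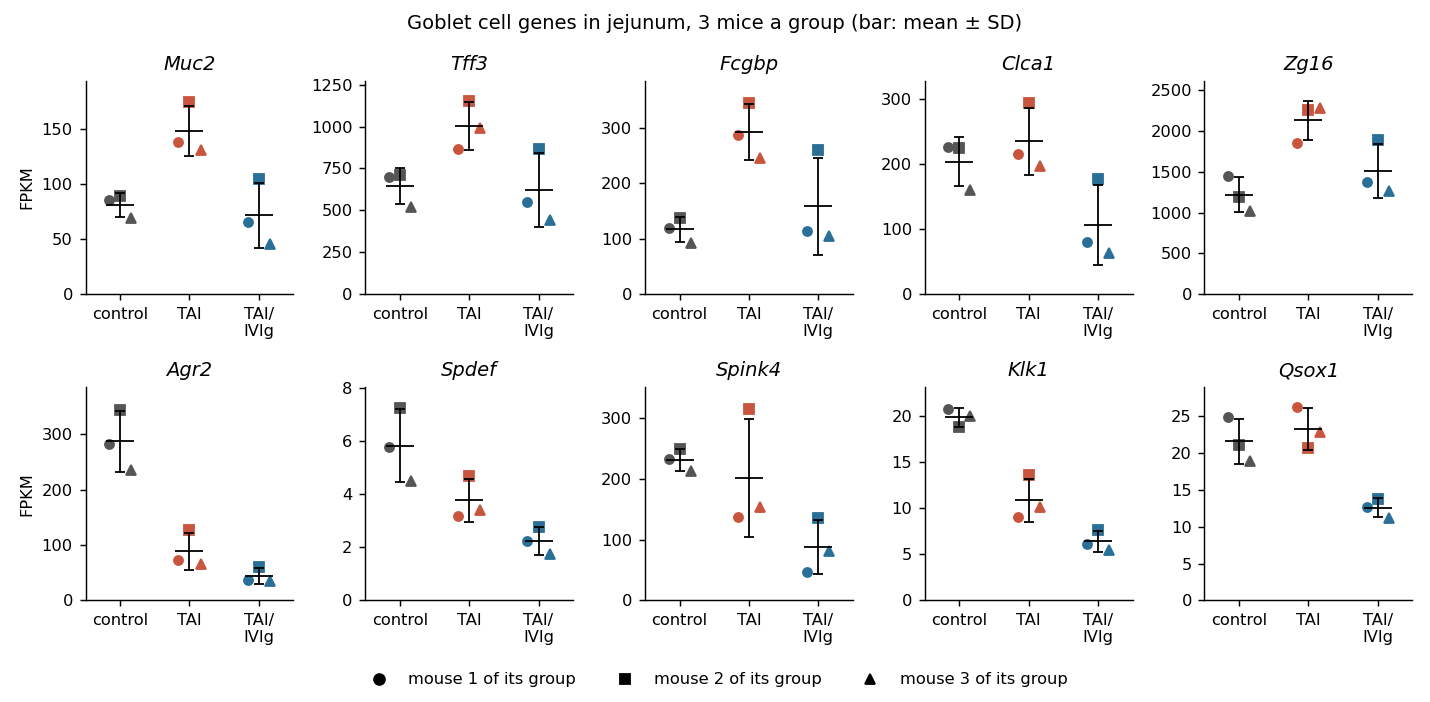
FPKM of the 10 goblet cell genes in each mouse, by group, on linear axes from 0. Symbols mark mouse 1, 2 or 3 of its group and bars give the mean ± SD of 3 mice. Muc2, Tff3, Fcgbp and Zg16 were higher in all TAI mice than in all control mice, while Agr2 had means of 287, 88.2 and 43.8 FPKM in control, TAI and TAI/IVIg mice.

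Agr2 went the other way. AGR2 is an ER protein of the disulfide isomerase family that MUC2 production needs, and its transcript showed the widest change of the 10 genes. Agr2 was at 283, 344 and 235 FPKM in control mice, at 72.2, 127 and 65.3 FPKM in TAI mice and at 37.0, 59.9 and 34.5 FPKM in TAI/IVIg mice. The 3 groups did not overlap with each other at all. The control mean (287 ± 55.0) was 3.26 times the TAI mean (88.2 ± 33.9) and 6.55 times the TAI/IVIg mean (43.8 ± 14.0). On the log2 scale, TAI differed from control by -1.74 (SE 0.30) and TAI/IVIg from TAI by -0.97 (SE 0.30).

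QSOX1, a sulfhydryl oxidase that introduces disulfide bonds and is found in many secretory cells, did not share the pattern of Agr2 after TAI alone. Qsox1 was at 24.9, 21.1 and 18.9 FPKM in control, 26.3, 20.7 and 22.9 FPKM in TAI and 12.7, 13.8 and 11.2 FPKM in TAI/IVIg mice. Control and TAI mice overlapped (log2 difference 0.10, SE 0.15), and every TAI/IVIg mouse lay below both. The log2 difference of TAI/IVIg (12.6 ± 1.32 FPKM) from TAI (23.3 ± 2.83 FPKM) was -0.84 (SE 0.15).

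SPDEF, the transcription factor of the set, was the least abundant, as regulators commonly are. Spdef was at 5.77, 7.24 and 4.49 FPKM in control mice, at 3.19, 4.69 and 3.42 FPKM in TAI mice and at 2.24, 2.76 and 1.73 FPKM in TAI/IVIg mice. These rest on 179 to 295 reads per control mouse, 126 to 176 reads per TAI mouse and 67 to 108 reads per TAI/IVIg mouse. TAI 2 lay inside the control range, so those groups overlapped (log2 difference -0.51, SE 0.20), while TAI/IVIg mice lay below all others. The difference of TAI/IVIg from TAI was -0.55 (SE 0.20) and from control -1.07 (SE 0.20), and the added 1 FPKM makes these smaller than the ratio of the means, since the control mean was 2.60 times the TAI/IVIg mean.

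SPINK4 is a small secreted protein of the serine protease inhibitor family and KLK1 is a serine protease, tissue kallikrein. Spink4 was at 233, 249 and 213 FPKM in control mice, at 138, 315 and 154 FPKM in TAI mice and at 47.4, 136 and 81.1 FPKM in TAI/IVIg mice. TAI mice spread to either side of the control mice (log2 difference -0.29, SE 0.40), and TAI/IVIg mice lay below both groups, narrowly so against TAI 1. Klk1 separated all 3 groups, with 20.8, 18.9 and 20.0 FPKM in control, 9.10, 13.6 and 10.1 FPKM in TAI and 6.14, 7.70 and 5.48 FPKM in TAI/IVIg mice. Its log2 difference was -0.83 (SE 0.17) for TAI against control and -0.67 (SE 0.17) for TAI/IVIg against TAI.

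Counted over the 10 genes, 3 were higher at a limma adjusted p under 0.05 after TAI (Muc2, Fcgbp and Zg16), where 8.81% of all tested genes were, and 2 were lower (Agr2 and Klk1), where 26.1% were. With no overlap between mice as the criterion, 4 were higher and 2 lower, beside 15.1% and 38.0% of all tested genes. In TAI/IVIg mice against control, 0 were higher and 6 lower at that adjusted p (Clca1, Agr2, Spdef, Spink4, Klk1 and Qsox1), beside 9.06% and 37.4%, and 0 were higher and 5 lower without overlap, beside 11.5% and 44.3%. In TAI/IVIg against TAI, limma gave an adjusted p under 0.05 to 0 of 13056 genes (0%, smallest adjusted p 0.353), while an unadjusted p under 0.05 was reached by 214 higher genes (1.64%) and 1466 lower genes (11.2%). All 10 members had a lower mean in TAI/IVIg than in TAI mice, for which no share of all tested genes was taken. Of these members, 7 did not overlap (Muc2, Clca1, Agr2, Spdef, Spink4, Klk1 and Qsox1), where 16.1% of tested genes were lower and 3.09% higher without overlap. Because the genes were listed with these contrasts known, the counts are not a test of the set or of its members. The comparisons share mice, TAI/IVIg against TAI using the same 3 TAI mice as TAI against control.

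The median over all tested genes also shifted, by -0.23 in TAI against control, -0.39 in TAI/IVIg against control and -0.13 in TAI/IVIg against TAI, and the medians of the 10 members were 0.15, -0.89 and -0.90. Relative to the shift of all genes, TAI minus control was 1.09 for Muc2, 0.88 for Tff3, 1.56 for Fcgbp and 1.05 for Zg16, and -1.5 for Agr2, -0.59 for Klk1 and -0.28 for Spdef. For TAI/IVIg minus TAI, the members lay between -1.13 (Clca1) and -0.38 (Zg16) relative to the shift.

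**Figure D2:**
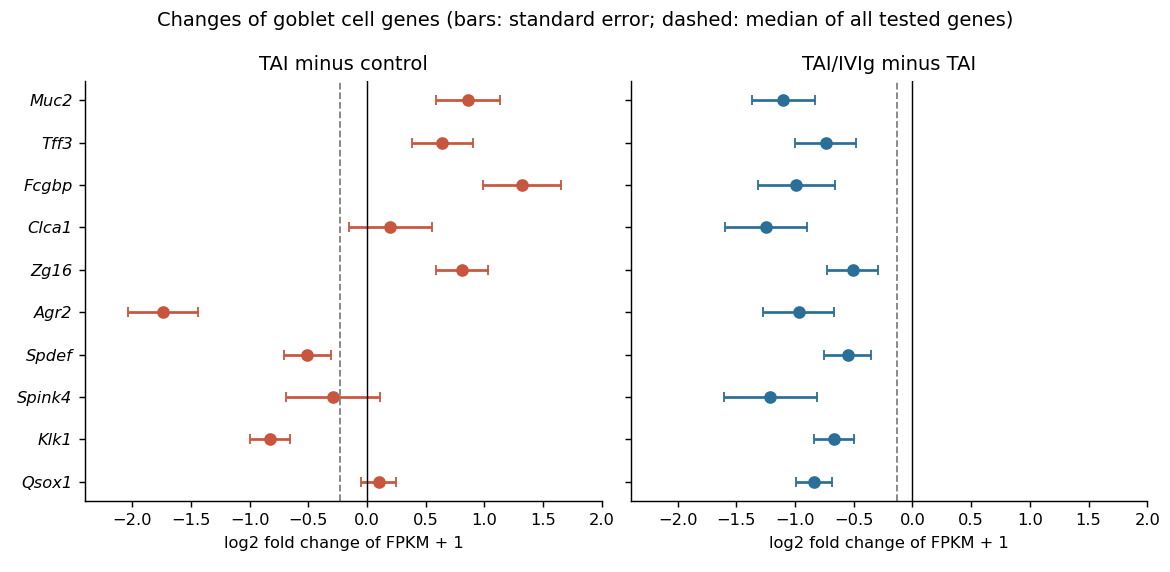
Log2 differences of FPKM + 1 for TAI minus control and TAI/IVIg minus TAI, with standard errors from the fit to 9 mice. The dashed line is the median of all 13056 tested genes. The members spread from -1.74 (Agr2) to 1.32 (Fcgbp) after TAI and all lie below 0 in TAI/IVIg minus TAI.

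The order of the levels changed with irradiation. In control mice the order per length was Zg16, Tff3, Agr2, Spink4, Clca1, Fcgbp, Muc2, Qsox1, Klk1 and Spdef, in which Agr2 and Spink4, Spink4 and Clca1, and Qsox1 and Klk1 overlapped. In TAI mice it was Zg16, Tff3, Fcgbp, Clca1, Spink4, Muc2, Agr2, Qsox1, Klk1 and Spdef, and it was the same in TAI/IVIg mice. There, Fcgbp, Clca1, Spink4 and Muc2 overlapped with their neighbours in both groups, and Agr2 overlapped with Muc2 in TAI/IVIg mice alone. Agr2 therefore moved from the third to the seventh place, below the mucin it helps to make. The 5 mucus components (Muc2, Tff3, Fcgbp, Clca1 and Zg16) held 78.6% to 82.0% of the members' summed FPKM in control mice, 89.8% to 93.8% in TAI mice and 93.5% to 95.4% in TAI/IVIg mice.

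A ratio within each mouse sets every other member against Muc2 in the same sample. Per unit of Muc2, Agr2 was at 3.30, 3.88 and 3.42 in control mice, 0.523, 0.730 and 0.497 in TAI mice and 0.564, 0.578 and 0.756 in TAI/IVIg mice. The mean ratio for these groups was 3.53 ± 0.302, 0.583 ± 0.128 and 0.633 ± 0.107, so the log2 change was -2.62 after TAI and 0.13, with overlap, between TAI/IVIg and TAI. Spdef per Muc2 went from 0.0714 ± 0.00878 to 0.0254 ± 0.00203 and 0.0329 ± 0.00575. Klk1 per Muc2 went from 0.249 ± 0.040 to 0.0735 ± 0.00667 and 0.0960 ± 0.0228. For both genes TAI mice lay below all control mice and overlapped with TAI/IVIg mice.

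Spink4 per Muc2 (2.88 ± 0.205, 1.33 ± 0.426 and 1.27 ± 0.527 in the 3 groups) and Clca1 per Muc2 (2.51 ± 0.150, 1.58 ± 0.0989 and 1.44 ± 0.251) were lower than control in every mouse of both irradiated groups. Qsox1 per Muc2 was lower than control in every TAI mouse (0.161 ± 0.0375 against 0.268 ± 0.0276) and overlapped with control in TAI/IVIg mice (0.191 ± 0.0557). The levels of Spink4, Clca1 and Qsox1 themselves overlapped between TAI and control mice (log2 differences -0.29, 0.20 and 0.10). Muc2 was higher by 0.86, so their lower ratios after TAI include the rise of Muc2. Among the mucus components, Fcgbp per Muc2 was higher than control in every irradiated mouse (1.43 ± 0.107, 1.97 ± 0.103 and 2.16 ± 0.401). Zg16 per Muc2 was 15.1 ± 1.79 in control and 14.6 ± 2.43 in TAI mice, which overlapped, and 22.3 ± 4.91 in TAI/IVIg mice, above all others. Tff3 per Muc2 (7.94 ± 0.302, 6.81 ± 0.655 and 8.82 ± 0.786) was below control in every TAI mouse and above it in every TAI/IVIg mouse. Between TAI/IVIg and TAI mice, 7 of the 9 ratios overlapped and Tff3 and Zg16 did not.

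**Figure D3:**
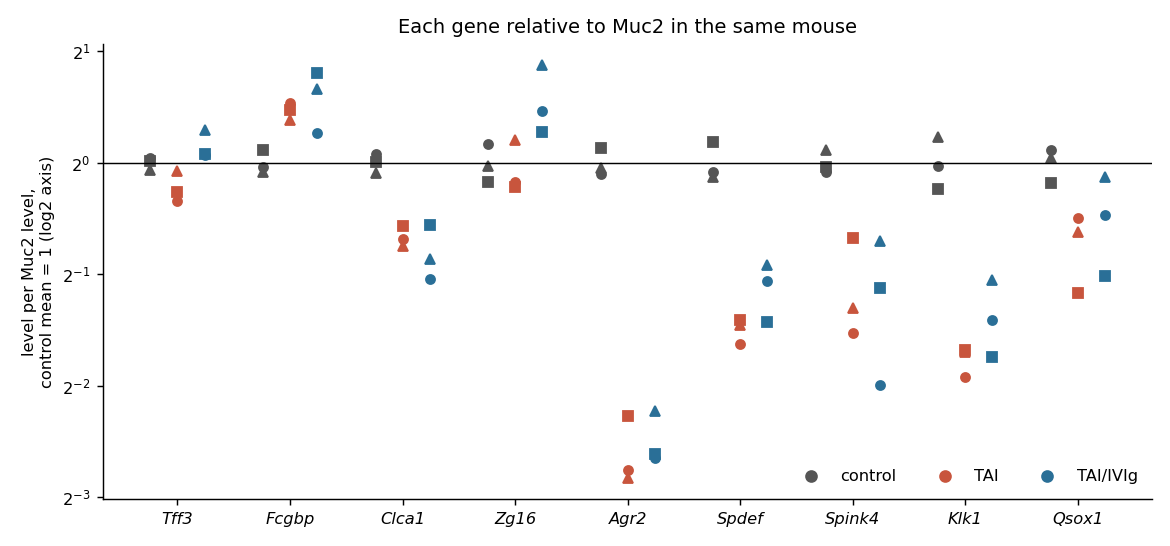
FPKM of 9 genes divided by the FPKM of Muc2 in the same mouse, scaled to the control mean, on a log2 axis. Circles, squares and triangles are mice 1, 2 and 3 of a group. Before scaling, the mean of Agr2 per Muc2 was 3.53 for control, 0.583 for TAI and 0.633 for TAI/IVIg mice, and the TAI and TAI/IVIg points overlap for every gene but Tff3 and Zg16.

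The members also kept a like order between mice of the same group. Within the control group, mouse 3 had the lowest value for 9 of the 10 genes, and was the lowest for 22.1% of all tested genes. Within the TAI group, mouse 2 was the highest for 8 members and for 48.7% of tested genes. Within the TAI/IVIg group, mouse 2 was the highest for all 10 members, beside 55.7% of tested genes, and mouse 3 the lowest for 9, beside 42.3%. The members took 0.619%, 0.616% and 0.467% of the recovered reads in the control mice, 0.890%, 1.11% and 0.887% in the TAI mice and 0.458%, 0.791% and 0.397% in the TAI/IVIg mice. TAI mice lay above all others on this sum, and TAI/IVIg 2 lay above the control mice while the other two lay below them.

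Markers of other cell types moved between the groups as well. All 12 Paneth cell markers were lower in TAI/IVIg than in TAI mice (median log2 difference -2.66), with summed levels of 2769, 7485 and 3760.1 FPKM in TAI and 486, 2024 and 200.3 FPKM in TAI/IVIg mice, against 1462, 7544 and 1447 FPKM in control mice. The highest Paneth sum of each group was in mouse 2, which was also the highest for 6, 8 and 10 members in control, TAI and TAI/IVIg mice. That mouse was the highest for 33.7%, 48.7% and 55.7% of all tested genes in those groups. All 14 stroma and muscle markers were lower in TAI/IVIg than in TAI mice too (median -0.86), with sums of 528, 501 and 649.8 FPKM in TAI and 459.5, 264 and 113 FPKM in TAI/IVIg mice. In neither list did a marker pass the adjusted threshold between those groups, and in neither was a marker at 0. TAI/IVIg 1 had a stroma sum near those of the TAI mice and low values of the goblet genes, with Muc2 at 65.6 and Clca1 at 80.0 FPKM. Without TAI/IVIg 3, the mouse with the lowest Paneth and stroma sums, the log2 difference of TAI/IVIg from TAI was -0.82 for Muc2, -0.95 for Clca1 and -0.40 for Zg16. The part of these cell types in the goblet result was not tested.

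Other epithelial lists gave different ranges. The 12 pan-epithelial markers summed to 7441 to 9165 FPKM in control, 8074 to 9044 FPKM in TAI and 7846 to 10254 FPKM in TAI/IVIg mice, which overlapped. Absorptive enterocyte markers summed to 13961 to 22395, 31978 to 52699.9 and 47367 to 51111 FPKM, and 9 of 14 rose at an adjusted p under 0.05 after TAI. Of 10 tested markers of crypt stem and cycling cells, 8 fell and 1 rose after TAI, with sums of 68.8 to 188 FPKM in control and 44.6 to 51.4 FPKM in TAI mice. Enteroendocrine cell markers, from another secretory lineage, summed to 151 to 179, 148 to 198 and 164 to 181 FPKM. Tuft cell markers summed to 29.2 to 37.7, 31.4 to 35.2 and 21.8 to 32.8 FPKM. Immune cell markers summed to 228 to 689.6, 169.9 to 353 and 152 to 388 FPKM. None of these lists, nor that of stroma and muscle, had a marker at 0 in all mice.

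Set against the pan-epithelial list, whose median moved by -0.28, -0.13 and 0.09 in TAI against control, TAI/IVIg against control and TAI/IVIg against TAI, the members' median was 0.43, -0.76 and -1.0. Muc2 as a percent of the epithelial sum had means of 0.965 ± 0.0656, 1.73 ± 0.261 and 0.821 ± 0.437 across the control, TAI and TAI/IVIg mice, and Agr2 was 3.42 ± 0.530, 1.03 ± 0.388 and 0.502 ± 0.227. With Epcam alone as the reference, whose own log2 difference was 0.45 after TAI, the members' median in TAI against control turned to -0.30, while Muc2 (0.41), Tff3 (0.19), Fcgbp (0.87) and Zg16 (0.36) stayed above 0 and Agr2 was at -2.19.

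**Figure D4:**
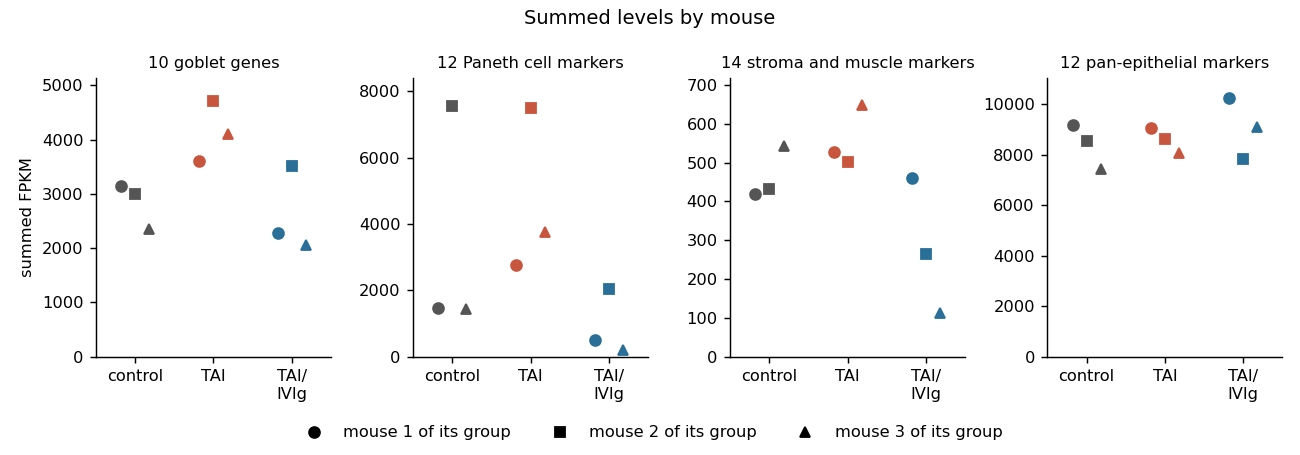
Summed FPKM of the 10 goblet genes, 12 Paneth cell markers, 14 stroma and muscle markers and 12 pan-epithelial markers in each mouse, on linear axes from 0. In TAI/IVIg mice the Paneth sums (200.3 to 2024 FPKM) and stroma sums (113 to 459.5 FPKM) lie below those of all TAI mice, while the pan-epithelial sums overlap.

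The wider goblet program was read from 5 further lists of 135 genes in all, written from general knowledge of the cell type with earlier results of these data known. Of these, 131 were listed and 116 tested. After TAI, 10 rose (8.62%) and 45 fell (38.8%) at a limma adjusted p under 0.05, beside 8.81% and 26.1% of all tested genes, with a median log2 difference of -0.43 against -0.23 for all tested genes. Of the genes that fell, 22 came from the 29 tested genes of ER folding and export (75.9%), a list not specific to goblet cells. In the other lists 16.7% to 32.4% of tested genes fell, around the 26.1% of all tested genes. In TAI/IVIg against control, 10 rose (8.62%) and 66 fell (56.9%), beside 9.06% and 37.4% of all tested genes, with a median of -0.71 against -0.39 for all genes. The lower calls there were 25 of 29 ER genes, 16 of 28 single-cell markers and 12 of 34 glycosylation genes. They also took in 7 of 13 transcription factors and 6 of 12 other secreted products. With equal library medians these 5 counts were 16, 7, 5, 2 and 2, beside 1894 of all 13056 tested genes. In TAI/IVIg against TAI, 0 of the 116 passed the adjusted threshold with limma, and the median was -0.20 against -0.13 for all genes. Unadjusted, 1 higher (beside 1.64% of all tested genes) and 28 lower (beside 11.2%) had a limma p under 0.05.

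The clearest group was the machinery of ER folding and export, where 22 of 29 tested genes fell after TAI (75.9%, beside 26.1% of all tested genes) and 0 rose, with a median of -1.04. All 29 had a lower mean than in control mice. Creld2, an ER stress protein, fell from 132 ± 34.8 to 21.6 ± 2.11 FPKM (log2 difference -2.53, SE 0.20, limma adjusted p 0.000227), and the disulfide isomerases Pdia6 (87.3 ± 18.5 to 17.7 ± 2.58 FPKM, -2.23, SE 0.19, adjusted p 0.000297) and Pdia4 (92.3 ± 16.3 to 21.2 ± 3.03 FPKM, -2.07, SE 0.23, adjusted p 0.000777) fell with it. These calls held in all 21 alternatives of processing or left-out mice. With library medians set equal, the list's median was -0.76, with 17 lower and 0 higher. Of all 13056 tested genes, 1823 were lower and 2159 higher with that scaling. Most of these genes serve every secretory cell, so the list is not specific to goblet cells. Its median for TAI/IVIg against TAI was -0.16, and limma called 0 of 29. Before adjustment, 4 genes were lower and 0 higher at a limma p under 0.05, beside 11.2% and 1.64% of all tested genes. Ern2, the ER stress sensor typical of mucous cells, was at 3.32 ± 0.983, 3.09 ± 0.913 and 1.17 ± 0.518 FPKM in control, TAI and TAI/IVIg mice (adjusted p 0.353 for TAI/IVIg against TAI).

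Among 12 other secreted products, 2 rose and 2 fell after TAI (16.7% each, beside 8.81% and 26.1% of all tested genes), with a median of -0.01. The 2 that rose are transmembrane mucins, which absorptive enterocytes also carry. Muc13 rose from 648 ± 162 to 2187 ± 219 FPKM (log2 difference 1.78, SE 0.24, adjusted p 0.00156) and Muc3 from 344 ± 63.9 to 619 ± 43.6 FPKM (0.86, SE 0.22, adjusted p 0.0179), the latter not past the threshold without control 2, control 3 or TAI 1, where the largest adjusted p over 21 alternatives was 0.0713. Lypd8, which binds flagellated bacteria and is also made by enterocytes, fell from 7558 ± 1055 to 724 ± 330.5 FPKM (-3.49, SE 0.44, adjusted p 0.00117), and Dmbt1, a secreted scavenger receptor protein, from 166 ± 40.7 to 8.74 ± 3.31 FPKM (-4.14, SE 0.60, adjusted p 0.0019). With the replicate number as a block, 4 of the 12 rose and 3 fell, beside 1191 and 3672 of all 13056 tested genes. Between TAI and TAI/IVIg mice, Lypd8 was at 724 ± 330.5 and 305 ± 136 FPKM, the chemokine Ccl9 at 3.00 ± 0.842 and 1.34 ± 0.843 FPKM, and the lectin Itln1, which is a Paneth cell gene as well, at 184 ± 111 and 48.0 ± 37.7 FPKM. Muc4, Muc17, Muc6 and Tff1 were not analysed here.

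Of 13 tested transcription factors, 3 rose and 3 fell after TAI (23.1% each, beside 8.81% and 26.1% of all tested genes), with a median of -0.31. ATOH1 drives the secretory fate, and Atoh1 fell from 7.63 ± 1.49 to 4.30 ± 0.560 FPKM (log2 difference -0.69, SE 0.19, adjusted p 0.0234), with 2.88 ± 0.824 FPKM in TAI/IVIg mice. That call was lost in 8 of 20 alternatives, with equal library medians among them (-0.41, adjusted p 0.139). Ehf, an epithelial ETS factor, fell from 25.6 ± 3.95 to 5.64 ± 3.20 FPKM (-2.11, SE 0.38, adjusted p 0.00423) and was at 1.76 ± 1.10 FPKM in TAI/IVIg mice. Cdx2, the intestinal identity factor, went from 74.0 ± 9.88 to 46.4 ± 2.84 FPKM (adjusted p 0.0236), a call lost in 10 of 21 alternatives. Elf3 (122 ± 22.2 to 236 ± 5.10 FPKM, adjusted p 0.0128), Klf4 (92.7 ± 21.6 to 159 ± 18.4 FPKM, adjusted p 0.0231) and Sox9 (1.94 ± 0.883 to 5.32 ± 2.26 FPKM, adjusted p 0.0463) rose, the call of Klf4 being lost in 5 of 21 alternatives and that of Sox9 in 8 of 20. Foxa3, a forkhead factor of goblet cells, was at 3.34 ± 1.24 FPKM in TAI and 1.80 ± 0.359 FPKM in TAI/IVIg mice (adjusted p 0.372). Elf3 and Cdx2 also stand in the pan-epithelial list.

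Of 34 tested genes of mucin glycosylation, 3 rose (8.82%) and 11 fell (32.4%) after TAI (median -0.17), near the 8.81% and 26.1% of all tested genes. With equal library medians 6 rose and 7 fell (median 0.11), beside 2159 and 1823 of all 13056 tested genes. The balance of directions therefore depends on the scaling. The risers were Chst4, a sulfotransferase (11.6 ± 5.70 to 46.2 ± 14.7 FPKM, log2 difference 1.95, SE 0.40, adjusted p 0.00742), the fucosyltransferase Fut2 (2.92 ± 1.59 to 11.2 ± 2.56 FPKM, 1.70, SE 0.35, adjusted p 0.00747) and B4galnt2 (41.4 ± 9.21 to 110.5 ± 22.1 FPKM, 1.40, SE 0.21, adjusted p 0.00203), which adds a terminal N-acetylgalactosamine. Gmds, needed for GDP-fucose, fell from 129 ± 15.0 to 22.2 ± 9.40 FPKM (-2.56, SE 0.45, adjusted p 0.00395). Gcnt1, a core branching enzyme, fell from 5.36 ± 1.47 to 1.5 ± 0.515 FPKM (adjusted p 0.00663), and C1galt1c1, the chaperone of the core O-glycan enzyme, from 49.4 ± 5.37 to 21.8 ± 2.59 FPKM (adjusted p 0.00297). These 6 calls held in every alternative fitted for them. In TAI/IVIg mice Fut2 was at 4.48 ± 1.91 FPKM and Galnt12, which starts O-glycans, at 5.03 ± 0.773 FPKM against 7.91 ± 1.27 FPKM in TAI mice, neither past the adjusted threshold (adjusted p 0.353 for each).

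Of 28 other single-cell markers of goblet cells, 2 rose (7.14%) and 7 fell (25%) after TAI, near the 8.81% and 26.1% of all tested genes (median -0.22, and 0.07 with equal library medians). Nlrp6, an innate sensor tied to mucus granule release, fell from 63.6 ± 4.49 to 12.4 ± 2.06 FPKM (log2 difference -2.27, SE 0.36, adjusted p 0.00252) and Scin, an actin-severing protein, from 95.0 ± 18.6 to 22.8 ± 1.69 FPKM (-1.99, SE 0.36, adjusted p 0.00441). The potassium channel gene Kcnn4 fell from 6.02 ± 2.40 to 1.77 ± 0.819 FPKM (adjusted p 0.0151), a call lost in 4 of 20 alternatives. The chloride channel gene Ano1 (1.66 ± 0.218 to 3.61 ± 0.229 FPKM, adjusted p 0.0382) and Tpd52 (72.3 ± 9.03 to 98.5 ± 10.2 FPKM, adjusted p 0.0353) rose, with calls lost in 9 of 20 and 6 of 21 alternatives. The median of this list was -0.46 for TAI/IVIg against TAI. The smallest p-values were those of S100a6 (99.1 ± 10.1 and 56.8 ± 9.86 FPKM in TAI and TAI/IVIg mice), Ano1 (1.47 ± 0.903 FPKM in TAI/IVIg mice) and Sytl2, a granule docking protein (2.11 ± 0.212 and 1.18 ± 0.274 FPKM). Vamp8, which acts in granule fusion, was higher (59.7 ± 7.85 and 74.9 ± 6.73 FPKM). None passed the adjusted threshold (adjusted p 0.353 for the 3 that were lower and 0.378 for Vamp8).

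**Figure D5:**
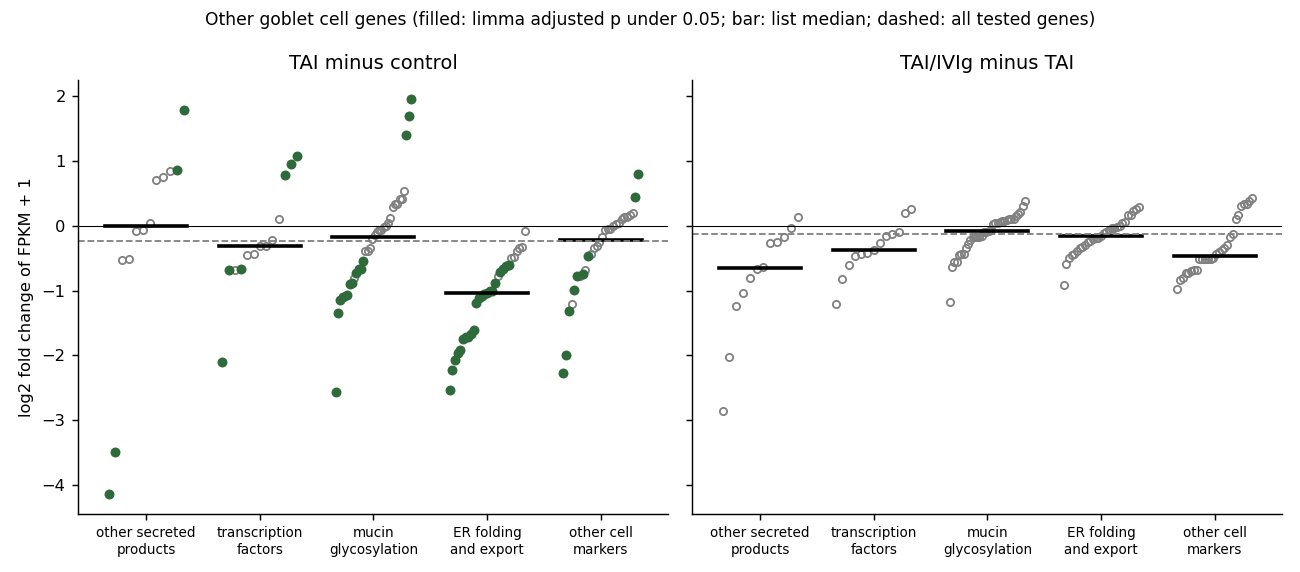
Log2 differences of every tested gene in 5 lists of other goblet cell genes, for TAI minus control and TAI/IVIg minus TAI. Filled points have a limma adjusted p under 0.05, thick bars are list medians and the dashed line is the median of all tested genes. The ER list has a median of -1.04 after TAI with 22 of 29 genes called lower, and 0 points are filled in TAI/IVIg minus TAI.

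Genes outside the members were ranked by how closely their level followed the members' mean over the 9 mice, as the root mean square distance between standardised log2(FPKM + 1) values, among genes with a mean of at least 5 FPKM. The 8 nearest were Mmp7 (0.239 SD), Defa3 (0.298), Lyz1 (0.346), Defa-ps6 (0.347), Defa23 (0.357), Defa30 (0.36), Gm15292 (0.361) and Defa24 (0.376). Most are named Paneth cell genes, encoding the protease MMP7, lysozyme and defensins. The defensin genes have near-identical copies, and how reads matching several of these were counted is not known here. Mmp7 was at 34.4 ± 12.0, 41.8 ± 23.5 and 7.25 ± 7.18 FPKM in control, TAI and TAI/IVIg mice. Lyz1 was at 543 ± 489.6, 748 ± 427 and 161 ± 181 FPKM. Among the members themselves, Clca1 was nearest to the mean (0.126), followed by Spink4 (0.51), Muc2 (0.532) and Qsox1 (0.541), and Zg16 was the farthest (1.0). Every member but Clca1 lay farther from that mean than the 8 genes did. By this distance Spink4 ranked 88, Muc2 111, Qsox1 119, Tff3 162, Spdef 381, Klk1 904, Agr2 1272, Fcgbp 1416 and Zg16 3428. Nearness to the mean is therefore not likeness to each member. With a pseudocount of 0.1, 7 of the 8 genes were again among the nearest. On deviations from the group means, 2 of them were (Mmp7 and Defa3), and Rab18 was the nearest (0.359). Of the 8 genes nearest to single members, picked after their values were seen, Muc2 shared 1 with that set and Agr2 and Spdef 0.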

How the data were processed

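RNA of jejunal tissue from 9 mice was sequenced on day 3, and the FPKM values that the authors deposited hold each mouse in a separate column. The submitters' processing notes name FastQC, Trimmomatic, STAR, featureCounts and DESeq2 and the builds mm10 and GRCm38, with no role or version, and the annotation and strand setting are not given in the sources used here. FPKM values were used as deposited (0 columns left out). All values were whole multiples of a single read per gene and library within 0.01 reads (100%), which gave library totals of 16282018 to 18241796 reads (median 17309893).

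The 10 members and all lists were chosen with earlier results of these data known. Groups were compared on log2(FPKM + 1) by limma 3.58.1 (R 4.3.3), fitting group means to all 9 mice with trended empirical Bayes moderation. Genes reaching 1 FPKM in 3 or more mice entered the test (13056), and p-values were adjusted per comparison after Benjamini and Hochberg. A fold change on this scale understates changes of low genes. Tables and plots were made with Python 3.11.15, pandas 2.3.3 and matplotlib 3.10.9. The fit was also run on reads simulated from control means with a single fixed spread, which cannot speak for the calls made here. Named genes were every member, up to 3 per direction of each list by size among those past the adjusted threshold in TAI against control and by unadjusted p in TAI/IVIg against TAI, and the 8 genes nearest to the members. Alternatives covered pseudocounts, filters, scalings, the mice fitted, limma voom on recovered reads and each mouse left out. As a check of pairing, each mouse's deviations from its group mean were correlated with those of the like-numbered mouse. The correlations were 0.271, 0.241 and 0.308 for TAI with control, and -0.296 to 0.201 where TAI/IVIg mice were involved. Mice of unlike number were not correlated, so the check cannot tell whether the numbers pair mice. The main fit used no pairing. An exact permutation test of 3 against 3 mice cannot go below p = 0.1.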

Additional observations from a re-analysis of the deposited data

How the results depend on the processing

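For TAI against control and TAI/IVIg against TAI, all 10 members kept their direction in every alternative with a value, apart from Spink4, which came to -0.00 after TAI with equal library medians, and from Clca1 (-0.25) and Qsox1 (-0.35), which turned after TAI relative to Epcam alone. The size of some changes after TAI moved with the scaling, with Zg16 (0.81) at 0.33 with quantile normalization and 1.10 with equal library medians, Spdef (-0.51) at -0.22, Klk1 (-0.83) at -0.54 and Qsox1 (0.10) at 0.39 with equal library medians. In TAI/IVIg against control 4 members turned. Muc2 (-0.24) went to 0.25 with equal library medians, 0.15 with upper quartile scaling, 0.25 with voom and median-ratio sizes and 0.03 without TAI/IVIg 3 (-0.55 without TAI/IVIg 2). Tff3 (-0.10) went to 0.39, 0.30, 0.40 and 0.11 in the same order (-0.37 without TAI/IVIg 2) and to 0.03 relative to the pan-epithelial median. Fcgbp (0.33) went to -0.09 without TAI/IVIg 2 and 0.57 without TAI/IVIg 3, and Zg16 (0.30) to -0.17 with quantile normalization. Relative to Epcam alone, Fcgbp (-0.26) and Zg16 (-0.29) turned too. The members' median relative to Epcam alone was -0.30 in TAI against control (0.43 relative to the list) and -1.48 in TAI/IVIg against control (-0.76). The causes were not tested.

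The count of genes past the threshold in TAI against control (4561) ran from 2350 to 4912 when a mouse was left out, with 2828 without control 2, 2945 without control 3 and 2350 without TAI 1. Equal library medians gave 2159 higher and 1823 lower in place of 1150 and 3411, and 2880 and 1894 in place of 1183 and 4880 for TAI/IVIg against control, and moved the median of all genes after TAI from -0.23 to 0.05. TAI/IVIg against control gave 3381 genes in place of 6063 at a mean FPKM of at least 5, where fewer genes were tested. Other goblet genes called there numbered 46 with equal medians, 50 with quantile normalization and 48 with voom and median-ratio sizes, in place of 76. In TAI/IVIg against TAI, 4 genes were called with no filter and 3 with the replicate number as a block, a pairing of mice that is not established. Of those 3, 1 was a listed goblet gene, Itln1 (-2.02, limma adjusted p 0.0487). With the block, calls in TAI against control numbered 4863 and other goblet genes 62 in place of 55.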
